A study of Mus musculus with 6 samples.

Results

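Haematopoietic stem cells (HSCs) are purified from bone marrow by antibodies against proteins on their surface, and the genes of the proteins commonly used for this are described here at the level of their transcripts. Of 10 listed names, Slamf2 is a synonym of Cd48, so the list held 9 genes out of 16312 in the count table: Kit, Ly6a, Slamf1, Cd48, Cd34, Flt3, Procr, Cd27 and Fgd5. The names were matched to the table by Ensembl identifier. HSCs of male mice had been sorted out of bone marrow by flow cytometry. There were 3 libraries from mice aged 22 months (old) and 3 from mice aged 8 to 12 weeks (young). Both ages were labelled B6 controls of a parabiosis study, in which animals are surgically joined, and the series title names the substrain C57BL/6N. No transgene, deletion or treatment is named in the labels. The sources used here do not give the antibodies of the sort, so which of the 9 proteins had a gate set on it is not known, and a gate can fix the range of the very gene it reads. In a bulk library, fewer cells of a type and less RNA per cell cannot be told apart.

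In the mouse, HSCs lie among marrow cells that carry the receptor tyrosine kinase Kit and the membrane-anchored protein Sca-1, encoded by Ly6a, and lack the antigens of mature lineages. Within that population the SLAM receptors divide stem cells from progenitors, since long-term HSCs carry CD150 (Slamf1) and lack CD48, while most multipotent progenitors show the reverse. Flt3 and CD34 are low or absent on long-term HSCs and rise as cells become multipotent progenitors, whereas EPCR, the endothelial protein C receptor encoded by Procr, is highest on the stem cells.

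The total count per library was 12494557 in old replicate 2, the lowest, and 30931680 in young replicate 3, the highest. Levels are CPM, which are counts relative to a library size scaled by TMM factors, and fold changes are old over young with standard errors (SE). HSC genes checked the label: the 12 of them summed to 4567 to 5058 CPM in old and 4148 to 5069 CPM in young libraries, and Hlf and Mecom were abundant in all 6. Of these 12 genes 1 passed edgeR's test, Mycn, a transcription factor of the Myc family, at 210.3 ± 10.1 CPM in old and 126 ± 14.4 CPM in young (SD, n = 3 each). All 9 sort markers passed the filter on low counts, and 4 passed an adjusted p of 0.05 in edgeR's quasi-likelihood test, 2 higher and 2 lower in old libraries. Among all 14288 genes tested 3.99% passed, 2.45% higher and 1.54% lower. Slamf1 and Procr were the 2 higher, Cd34 and Flt3 the 2 lower, and Kit, Cd27, Ly6a, Fgd5 and Cd48 did not pass. The median log2 fold change was −0.01 over the 9 markers and −0.02 over all genes tested. In 6 of the 9 the old and young libraries did not overlap in CPM, against 22.4% of all genes tested. The 9 genes were chosen with earlier results of these data known, so these shares are a description.

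The 300 bases around the start of each of the 4 genes that passed are shown first, since these are the markers whose transcripts differed by age. Promoter windows run from 250 bases before to 50 after the start and come from RefSeq on GRCm38.p6, which held 8 of the 9 genes, not Ly6a. Each is printed 5′ to 3′ along the strand of its gene. Capitals mark matches on either strand to 4 short motifs of blood cell transcription factors, namely AGATAA for factors such as Gata2, AGGAAG for the ETS family, TGTGGT for the RUNX family and CAGATG as an E-box. The windows lie at chr1:171766882-171767181 (plus strand, Slamf1), chr2:155750967-155751266 (plus, Procr), chr1:194938571-194938870 (plus, Cd34) and chr5:147400440-147400739 (minus, Flt3).
Slamf1: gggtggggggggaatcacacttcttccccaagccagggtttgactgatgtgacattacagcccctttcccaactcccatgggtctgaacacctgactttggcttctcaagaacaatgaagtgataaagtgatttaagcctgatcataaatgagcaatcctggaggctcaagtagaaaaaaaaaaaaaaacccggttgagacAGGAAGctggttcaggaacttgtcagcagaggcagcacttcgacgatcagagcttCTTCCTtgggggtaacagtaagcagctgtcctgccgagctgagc
Procr: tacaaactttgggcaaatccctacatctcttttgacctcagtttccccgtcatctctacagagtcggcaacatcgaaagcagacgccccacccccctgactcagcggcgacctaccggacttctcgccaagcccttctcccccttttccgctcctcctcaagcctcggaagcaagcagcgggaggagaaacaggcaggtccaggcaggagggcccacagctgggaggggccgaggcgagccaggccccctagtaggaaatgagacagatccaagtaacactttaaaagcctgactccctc
Cd34: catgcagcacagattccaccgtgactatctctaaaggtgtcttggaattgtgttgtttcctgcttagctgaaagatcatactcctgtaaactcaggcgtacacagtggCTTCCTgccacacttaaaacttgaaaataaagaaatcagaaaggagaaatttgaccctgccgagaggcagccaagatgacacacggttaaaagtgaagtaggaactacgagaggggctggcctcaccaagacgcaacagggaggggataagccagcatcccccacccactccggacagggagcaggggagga
Flt3: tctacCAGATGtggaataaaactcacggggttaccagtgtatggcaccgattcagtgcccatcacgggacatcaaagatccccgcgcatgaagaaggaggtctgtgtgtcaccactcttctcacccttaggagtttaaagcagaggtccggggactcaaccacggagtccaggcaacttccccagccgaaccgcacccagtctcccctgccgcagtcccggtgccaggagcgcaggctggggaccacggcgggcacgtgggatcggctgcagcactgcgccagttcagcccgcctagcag
The Slamf1 window held the ETS letters in 2 places, once as printed and once as the reverse complement CTTCCT, and the Cd34 window held them once as CTTCCT. The Flt3 window held the E-box letters once, and the Procr window held none of the 4 motifs. No matches overlapped. Among the other 4 markers in the table, Kit, Cd48 and Fgd5 each held AGGAAG once, Cd48 also TGTGGT once, and Cd27 CAGATG once, while none of the 8 held AGATAA. Among all 32851 windows of the table, AGGAAG stood in 35.4%, CAGATG in 17.2%, TGTGGT in 16.8% and AGATAA in 11.2%. A match is a run of letters, not a measured binding site, and was not compared with the direction of change.

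Slamf1 encodes CD150, the SLAM receptor by which HSCs are positively selected, and lies at chr1:171767127-171801184 on the plus strand of GRCm38. It had 126, 129 and 149 CPM in old replicates 1 to 3, against 42.1, 39.7 and 63.9 CPM in young replicates 1 to 3. Every old library stood above every young one, and young replicate 3 was the highest of the young. Slamf1 rose by 1.47 ± 0.19 on the log2 scale, or 2.77-fold (SE, adjusted p = 0.00103 in edgeR's quasi-likelihood test, higher in 3 of 3 old libraries).

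Procr encodes the endothelial protein C receptor, which binds protein C on endothelial cells and marks HSCs as EPCR (chr2:155751117-155755471, plus strand). It had 160.2, 176 and 162 CPM in old libraries, against 79.4, 91.8 and 86.0 CPM in young libraries. Both groups were tight and far apart. Its increase was 0.95 ± 0.12 on the log2 scale, or 1.94-fold (adjusted p = 0.00097 in edgeR's test).

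Cd34 encodes a sialomucin that separates long-term HSCs, which lack it in adult mice, from progenitors (chr1:194938819-194961279, plus strand). It had 62.2, 53.7 and 56.7 CPM in old libraries, against 125, 126 and 122 CPM in young libraries. The young values were within a few CPM of each other, and no old library reached them. Cd34 fell by 1.11 ± 0.13 on the log2 scale, and the young level was 2.16-fold that of the old (adjusted p = 0.000555 in edgeR's test).

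Flt3 encodes the receptor tyrosine kinase for Flt3 ligand, which is carried by lymphoid-primed multipotent progenitors (chr5:147330741-147400489, minus strand). It had 13.8, 11.7 and 10.2 CPM in old libraries, against 32.6, 39.6 and 40.4 CPM in young libraries. The highest old library was well under the lowest young one. Flt3 fell by 1.66 ± 0.22 on the log2 scale, so the young level was 3.16-fold that of the old (adjusted p = 0.00136 in edgeR's test). All 4 genes kept their direction and their call in each of 12 alternatives, which comprised other scalings, filters and tests and each library left out.

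**Figure D1:**
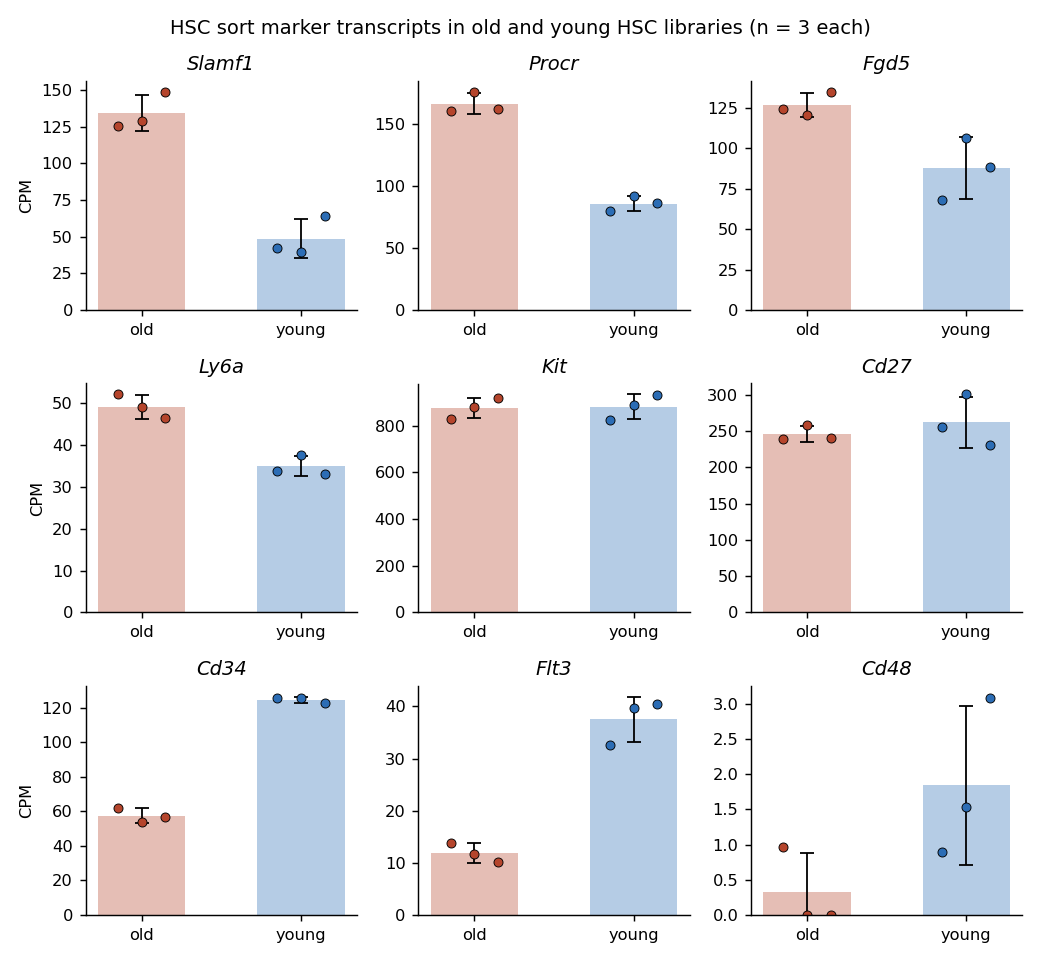
CPM of the 9 sort marker genes by library, old (red, left) and young (blue, right) in each panel, with points for libraries, bars for the mean and lines for ± SD (n = 3 each). Slamf1 and Procr stand higher in old, Cd34 and Flt3 lower in old, and Kit and Cd27 overlap.

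Kit encodes the receptor for stem cell factor and is the common surface mark of HSCs and early progenitors (chr5:75574916-75656722, plus strand). It had 829, 879 and 918 CPM in old libraries, against 826, 888 and 930.4 CPM in young libraries. The groups overlapped over nearly their whole range. The log2 difference was −0.01 ± 0.09 (adjusted p = 0.977 in edgeR's test), and its sign turned when young replicate 3 or old replicate 1 was left out.

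Cd27 encodes a receptor of the tumour necrosis factor receptor family that is carried by HSCs and many progenitors (chr6:125232622-125237010, minus strand). It had 239, 259 and 241 CPM in old libraries, against 255, 301 and 231 CPM in young libraries. The old values lay inside the range of the young ones. The log2 difference was −0.09 ± 0.12 (adjusted p = 0.780 in edgeR's test), and it turned positive without young replicate 2.

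Fgd5 encodes a guanine nucleotide exchange factor inside the cell, so it is no surface protein, and is known as a reporter gene of mouse HSCs (chr6:91978878-92076004, plus strand). It had 125, 120.4 and 135 CPM in old libraries, against 68.0, 106 and 88.7 CPM in young libraries. The groups did not overlap, though young replicate 2 came near the lowest old library. The log2 difference of 0.53 ± 0.16 did not pass in edgeR's test (adjusted p = 0.101), passed in DESeq2 (adjusted p = 0.0270), and passed in edgeR's test when young replicate 2 was left out (0.69, adjusted p = 0.0484).

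Ly6a encodes Sca-1, which with Kit defines the marrow compartment that holds HSCs (chr15:74994877-74998031, minus strand). It had 52.0, 48.9 and 46.3 CPM in old libraries, against 33.9, 37.6 and 33.1 CPM in young libraries. Every old library was above every young one. The log2 difference of 0.49 ± 0.16 did not pass in edgeR's test (adjusted p = 0.140) and passed in DESeq2 (adjusted p = 0.0365). With its 6 calls in DESeq2 the list stood against 7.47% of all genes in that tool. Some of Ly6a cannot be told from its neighbours by short reads, since 19.0% of its 1297 windows of 50 bases, the read length, also occur in another gene, mostly Ly6c1 (195 windows) and Ly6i (31). A stretch of 140 coding bases with an unbroken run of 80 shared by Ly6a and Ly6i shows this, read from GENCODE transcripts on GRCm38, 5′ to 3′, with the 6 bases that differ in capitals. The 2 stretches span 2 exons each, at chr15:74996470-74997575 in Ly6a and chr15:74981904-74983030 in Ly6i, both on the minus strand.
Ly6a: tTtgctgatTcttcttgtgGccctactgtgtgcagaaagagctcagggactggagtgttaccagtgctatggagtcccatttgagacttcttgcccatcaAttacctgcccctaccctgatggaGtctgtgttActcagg
Ly6i: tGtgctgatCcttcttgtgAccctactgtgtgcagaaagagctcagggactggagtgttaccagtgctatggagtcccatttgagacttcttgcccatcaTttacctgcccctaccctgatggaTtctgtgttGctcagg
The table held at most 0.759 CPM of Ly6i and 0.275 CPM of Ly6c1 in any library, and Ly6c2 reached 3.13 CPM in young replicate 1. With the counts of Ly6a, Ly6c1 and Ly6c2 summed, the log2 difference was 0.45 (adjusted p = 0.177 in edgeR's test). Ly6i was not in that sum, so the sum does not cover the stretch shown. Of the other markers, Cd27 shared 3.31% of its windows, all with the microRNA gene Mir8113 that lies on it, Slamf1 shared 2.38% and Cd34 2.14%, mostly with its antisense gene Gm16897. Kit, Cd48, Procr and Fgd5 shared none. The antisense gene Gm16897 overlaps 148 exonic bases of Cd34, and whether counting used strand is not stated, so reads there cannot be told apart.

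Cd48 encodes the SLAM ligand and receptor whose absence defines HSCs in the SLAM scheme (chr1:171682009-171705258, plus strand). It had 0.970 CPM in old replicate 1 and none in the other two, against 0.901, 1.53 and 3.09 CPM in young libraries, which were 23, 0 and 0 counts in old and 19, 39 and 101 in young. Old replicate 1 overlapped the young range. In the old libraries without counts, a floor of 3 counts comes to 0.252 CPM in replicate 2 and 0.137 CPM in replicate 3. The log2 difference of −2.39 ± 1.17 did not pass in edgeR's test (adjusted p = 0.341). Without old replicate 1 it passed in edgeR's test (adjusted p = 0.0397). Cd48 was then at least 20.7-fold lower in old, against a floor of 3 counts over the other 2 old libraries. That step removed the only old library with counts, so it could only give a lower call and decides nothing. Cd48 passed in no other setting that tested it, with the lowest adjusted p there 0.0897 in limma-voom. It could not be tested under the filter of 1 CPM in 3 libraries.

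**Figure D2:**
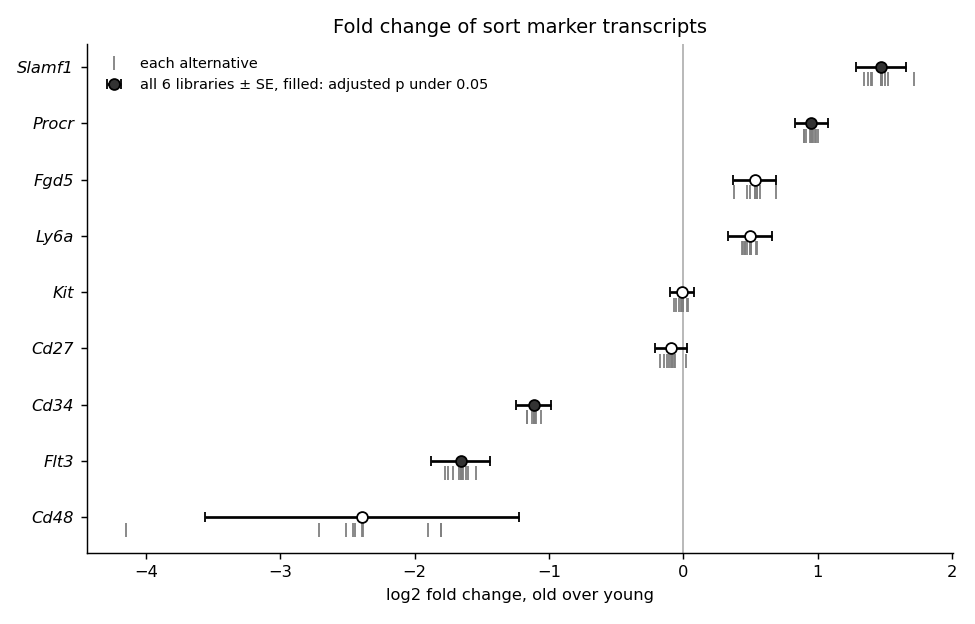
Log2 fold change (old over young, x axis) of each marker with all 6 libraries (circles ± SE, filled where the adjusted p is under 0.05) and under each alternative (ticks below). Slamf1 and Procr lie right of 0 and Cd34 and Flt3 left of it in every alternative, and 1 value of Cd48, without old replicate 1, is not drawn because no old counts remain.

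Levels of different genes were compared per length, as TPM, counts over transcript length scaled to a fixed library sum, from the longest annotated transcript. In old libraries Kit averaged 407 ± 20.5 TPM, Cd27 384 ± 13.6 TPM and Procr 251 ± 7.77 TPM (SD, n = 3). Below them came Ly6a at 125 ± 14.2 TPM, Slamf1 at 74.1 ± 7.33 TPM, Fgd5 at 50.7 ± 4.71 TPM, Cd34 at 45.9 ± 6.45 TPM, Flt3 at 7.36 ± 1.54 TPM and Cd48 at 0.710 ± 1.23 TPM. Of these neighbours only Kit and Cd27, and Fgd5 and Cd34, overlapped in TPM between libraries.

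In young libraries Kit averaged 446 ± 46.8 TPM, Cd27 444 ± 55.4 TPM and Procr 141 ± 14.1 TPM. Then came Cd34 at 108 ± 3.73 TPM, Ly6a at 96.6 ± 7.05 TPM, Fgd5 at 38.2 ± 9.04 TPM, Slamf1 at 29.3 ± 9.38 TPM, Flt3 at 25.2 ± 3.90 TPM and Cd48 at 4.18 ± 2.74 TPM. Kit with Cd27, Cd34 with Ly6a, Fgd5 with Slamf1 and Slamf1 with Flt3 overlapped in TPM. With the length of all exons together in place of the longest transcript, Kit and Cd27 changed places in both groups, and Cd34 and Ly6a in the young one. Slamf1 stood above 86.2% of the genes tested in TPM in old and above 62.8% in young, whereas Flt3 stood above 32.9% in old and 58.4% in young.

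**Figure D3:**
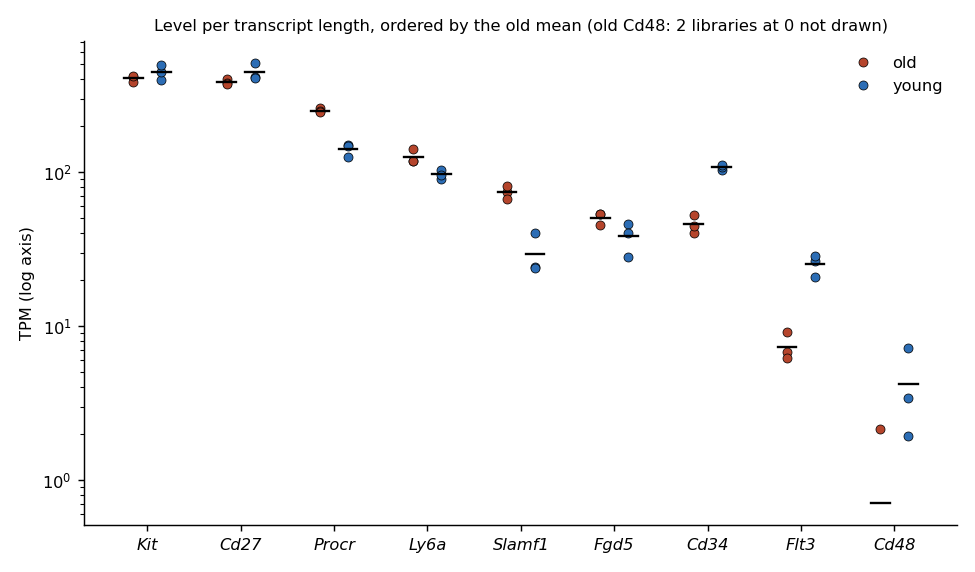
TPM of each marker on a log axis, ordered by the old mean, with a point per library for old (red, left) and young (blue, right) and a line at the group mean. Slamf1, Fgd5 and Cd34 lie close together in old, while in young Cd34 stands well above Slamf1 and Flt3 lies near Slamf1. Both old libraries of Cd48 at 0 are not drawn.

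Ratios of CPM within a library combine markers that moved in opposite directions, and are given as a description because the genes were known to differ. Slamf1 over Flt3 was 9.08, 11.1 and 14.6 in old libraries, against 1.29, 1.00 and 1.58 in young libraries. Procr over Cd34 was 2.58, 3.27 and 2.86 in old, against 0.633, 0.730 and 0.702 in young. In both ratios each old library stood above each young one, and with Kit as the denominator Slamf1 gave 0.153 ± 0.00786 in old and 0.0548 ± 0.0125 in young (SD, n = 3 each).

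Slamf1 and Cd48 lie in a cluster of SLAM family genes on chromosome 1, where receptors and their ligands of the same family sit side by side over 394 kb. Cd48 and Slamf1 are 61.9 kb apart, and Cd84 lies 38.5 kb beyond Slamf1. Cd84 had 192, 159 and 183 CPM in old libraries, against 152, 174 and 200 CPM in young libraries, which overlapped. Its log2 difference was 0.02 ± 0.13 (adjusted p = 0.967 in edgeR's test), and its sign turned when libraries were scaled by size alone. The ratio of Slamf1 to Cd84 CPM was 0.760 ± 0.0912 in old and 0.274 ± 0.0461 in young (SD, n = 3 each).

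None of the 5 other SLAM genes tested passed in edgeR's test, DESeq2 or limma-voom, and 2 had an unadjusted edgeR p under 0.05. Ly9 had 18.8, 26.7 and 13.7 CPM in old, against 44.2, 21.4 and 32.9 CPM in young (log2 −0.74 ± 0.31, adjusted p = 0.242 in edgeR's test). Slamf7 reached at most 0.366 CPM in old and 1.74 CPM in young (adjusted p = 0.187 in edgeR's test), with no overlap of the groups. Slamf6 and Cd244a reached at most 2.26 and 3.86 CPM in any library, with log2 differences of −0.52 ± 0.60 and 0.15 ± 0.79 (adjusted p = 0.748 and 0.955 in edgeR's test). Cd244a and Ly9 overlap on opposite strands as whole genes. Where exons overlap, reads cannot be told apart without strand, and whether the exons of this pair overlap was not checked. Of the enzymes and adaptors that relay SLAM signals, Fyn, Ptpn6, Ptpn11 and Inpp5d were tested and none passed in edgeR's test, DESeq2 or limma-voom, with 1 at an unadjusted edgeR p under 0.05.

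**Figure D4:**
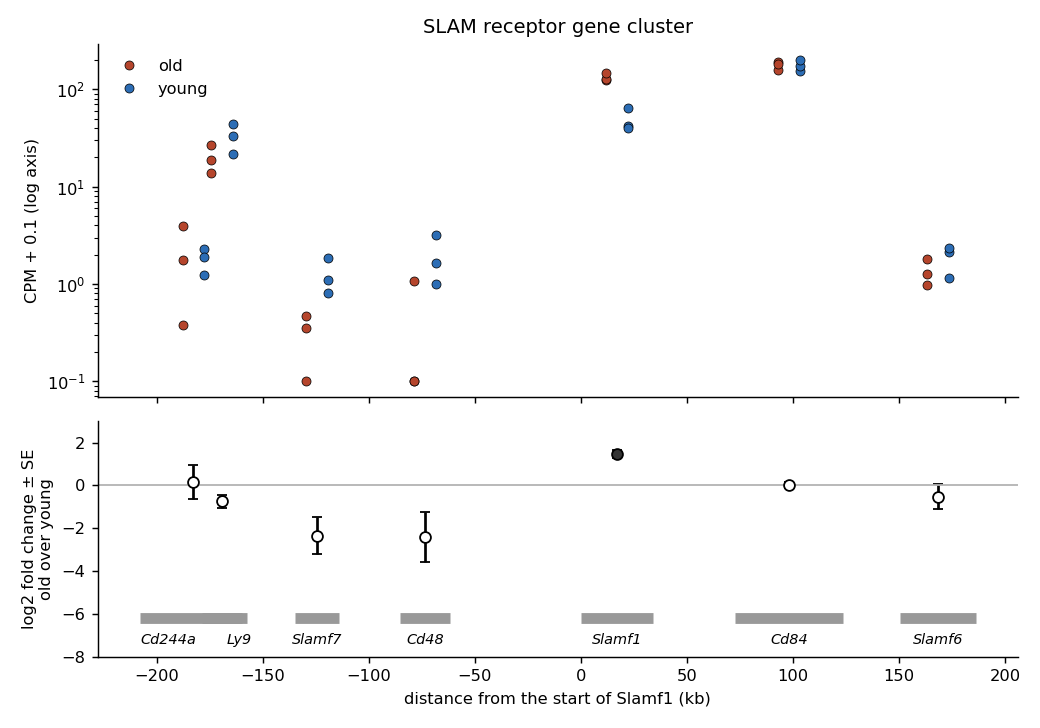
The SLAM gene cluster by distance from the start of Slamf1 in kb. The upper plot gives CPM + 0.1 per library on a log axis, old (red) left of young (blue), and the lower one the log2 fold change (old over young) ± SE over grey bars for the genes. Slamf1 is the filled point, at 1.47, and none of the other 6 passed.

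Beyond the cluster, each marker was set beside the tested gene nearest on either side. Of these 16 neighbours that are no sort markers 1 passed in edgeR's test, against 3.99% of all genes tested. It was Kdr, which lies 276 kb from Kit and encodes the VEGF receptor 2. Kdr averaged 38.1 ± 12.4 CPM in old and 5.53 ± 1.87 CPM in young (SD, n = 3 each), with a log2 difference of 2.78 ± 0.33 (adjusted p = 0.000671 in edgeR's test). Ly6e, a relative of Ly6a and its nearest tested gene on one side, had 371, 418 and 395 CPM in old, against 327, 293 and 280 CPM in young. Ly6e did not pass in edgeR's test (0.39 ± 0.11, adjusted p = 0.0613), and passed without young replicate 1 (adjusted p = 0.0442) and in DESeq2 (adjusted p = 0.0139).

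Around the receptors, the genes that carry their signals did not pass. Kit and Flt3 are class III receptor tyrosine kinases, and of the other 3 in that class none passed in edgeR's test, DESeq2 or limma-voom, with 1 at an unadjusted edgeR p under 0.05. Csf1r, the receptor of macrophage colony-stimulating factor, was at 0.506, 0.587 and 0.137 CPM in old and 1.90, 0.588 and 3.70 CPM in young (log2 −2.35 ± 0.83, adjusted p = 0.164 in edgeR's test). Of 19 genes of Kit and Flt3 signalling none passed in edgeR's test, DESeq2 or limma-voom, and 2 had an unadjusted edgeR p under 0.05. The one with the smallest p was Pik3r1, a regulatory subunit of PI3 kinase, at 0.38 ± 0.12 on the log2 scale (adjusted p = 0.116 in edgeR's test).

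The ligands and partners of the markers gave no call either in edgeR's test, DESeq2 or limma-voom. Kitl, which encodes stem cell factor, stood at 1.10 to 2.01 CPM in old and 0.734 to 1.28 CPM in young, and Flt3l, Flt3 ligand, at 8.15 to 13.5 CPM in old and 9.67 to 15.2 CPM in young. Of 5 genes of the protein C receptor pathway, 4 of CD27 signalling and 5 other Fgd genes, none had an unadjusted edgeR p under 0.05. F2r, the thrombin receptor through which the protein C pathway signals, had 198 to 243 CPM in old and 166 to 253 CPM in young. Podxl, the relative of CD34 known as podocalyxin, had 45.8, 60.9 and 45.3 CPM in old, against 33.5, 26.9 and 33.7 CPM in young. It did not pass in edgeR's test (0.69 ± 0.19, adjusted p = 0.0709) and passed in DESeq2 (adjusted p = 0.00895).

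A further 28 surface genes used or proposed to mark HSCs were tested, and 8 of them (28.6%, against 2.45% of all genes) rose in old in edgeR's test, none fell and 20 did not pass. The 8 were called in each of 12 alternatives. The median log2 difference of the 28 was 0.25, against −0.02 for all genes. This list was chosen with earlier results of these data known, so its share and median are a description and no test. Selp encodes P-selectin, an adhesion receptor of platelets and endothelium, and had 171, 246 and 267 CPM in old, against 23.5, 20.1 and 33.0 CPM in young (log2 3.16 ± 0.22, adjusted p = 9.3e-06 in edgeR's test). Alcam, the adhesion molecule CD166, had 419, 411 and 484 CPM in old, against 161, 182 and 153 CPM in young (1.40 ± 0.11, adjusted p = 4.51e-05 in edgeR's test). In both genes the lowest old library was far above the highest young one.

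Jam2, a junctional adhesion molecule, had 132, 166 and 258 CPM in old, against 35.5, 49.1 and 46.0 CPM in young (2.09 ± 0.23). Neo1, the netrin receptor neogenin, had 96.4, 103 and 129 CPM in old, against 18.2, 32.7 and 33.7 CPM in young (1.95 ± 0.23). Old replicate 3 was the highest in both, and young replicate 1 the lowest. Cd38, an ectoenzyme that marks HSCs in mice, averaged 60.4 ± 14.4 CPM in old and 17.8 ± 3.76 CPM in young. The integrin subunits Itgb3 and Itga6 had log2 differences of 1.31 ± 0.21 and 0.78 ± 0.12. Genes that megakaryocytes or endothelium also carry are among the 28. Of 10 megakaryocyte markers 2 rose in edgeR's test, Itgb3 and the HSC reporter gene Vwf, and the list summed to 562 to 691 CPM in old and 238 to 305 CPM in young. Pf4, also in that list, was lower in old, at 19.6, 20.2 and 20.1 CPM, against 29.3, 36.0 and 29.4 CPM in young. It did not pass (log2 −0.66 ± 0.20, adjusted p = 0.0969 in edgeR's test). In DESeq2 2 of the 10 rose and 1 fell. Without Itgb3 and Vwf the other 8 summed to 78.6 to 88.0 CPM in old and 76.5 to 101 CPM in young, which overlapped. These 2 were left out after the values were seen, and they were the only 2 that passed. That none of the other 8 passed was thus fixed by the choice, and the smaller sum decides nothing. Of 6 endothelial markers 3 rose, Kdr among them, and the list summed to 206 to 252 CPM in old and 130.2 to 199 CPM in young. The megakaryocyte list shares Itga2b and Itgb3 with the 28, and the endothelial list shares Kdr and Emcn. Without Kdr and Emcn the endothelial sum was 144 to 175 CPM in old and 95.6 to 155 CPM in young, which overlapped. Of the 4 tested genes left, 2 still rose in edgeR's test. These were Cldn5 (18.6-fold, adjusted p = 0.000314 in edgeR's test) and Clec14a (2.83-fold, adjusted p = 0.0268 in edgeR's test). Pecam1 and Tie1, which made up most of that sum, did not pass. No gene of either list was at 0 in every old library, and the part of endothelial cells in the result was not tested. Also higher in old were the immediate early genes, all 11 of which rose, against 2.45% of all genes. Their sum was 3656 to 4259 CPM in old and 389 to 464 CPM in young. Atf3, 1 of the 11, had at most 0.190 CPM in young. It passed the filter through the old libraries alone, so it could only be called higher.

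Of 10 genes used, like Fgd5, as reporters of HSCs in mice, 3 rose in old (30%, against 2.45% of all genes) and none fell. Hlf and Mecom are among these 10 and also among the 12 HSC genes above. Vwf, von Willebrand factor, had 183, 187 and 248 CPM in old, against 23.1, 38.1 and 53.6 CPM in young (2.42 ± 0.26, adjusted p = 0.000357 in edgeR's test). The groups were far apart. Pdzk1ip1, a small membrane protein gene, had a log2 difference of 1.02 ± 0.20 (adjusted p = 0.0131 in edgeR's test) and lost its call without old replicate 3 (adjusted p = 0.0819). Krt18, a keratin, had 0.87 ± 0.21 (adjusted p = 0.0442 in edgeR's test) and lost its call in 7 of 12 alternatives. Without old replicate 3 the count was 1 of 10, and in DESeq2 it was 5.

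Surface genes of myeloid, lymphoid and erythroid progenitors were also read. Of 17 tested 2 fell in edgeR's test (11.8%, against 1.54% of all genes), none rose and 15 did not pass. The median log2 difference of the 17 was −0.67. Fcgr3, an Fc gamma receptor, was at 0 in every old library, against 2.99, 5.06 and 0.642 CPM in young. Taking 3 counts over all old libraries as the floor, it was at least 55.5-fold lower in old (adjusted p = 0.00812 in edgeR's test). Fcgr3 passed the filter through the young libraries alone, so it could only be called lower. Under the filter of 1 CPM in 3 libraries 1 of 14 progenitor genes fell. Vcam1, an adhesion molecule, had 1.65, 0.252 and 0.641 CPM in old, against 8.20, 7.69 and 11.9 CPM in young (−3.38 ± 0.60, adjusted p = 0.0077 in edgeR's test). Both groups were low, and they did not overlap.

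Macrophages also carry both genes, Vcam1 stands in the macrophage list too, and other macrophage markers were lower in old beside them. Of 12 macrophage markers 8 fell in edgeR's test (66.7%, against 1.54% of all genes) and none rose. The count was 3 with old replicate 3 left out and 4 with old replicate 1 left out. With no filter 6 of the 12 fell, and under the filter of 1 CPM in 3 libraries 5 of 8 did. Adgre1, Fcna, Cd5l, C1qb, Vsig4 and Timd4 were at 0 in every old library. Of these, Adgre1, Fcna, Cd5l and C1qb passed the filter through the young libraries alone, so they could only be called lower. C1qc, also 1 of the 8, had 0.211, 0 and 0 CPM in old, against 3.65, 1.53 and 0.856 CPM in young. It too passed the filter through the young libraries alone and could only be called lower. The sum of the macrophage list was 199 to 226 CPM in old and 206 to 249 CPM in young, most of it Lyz2, a lysozyme gene at 171 to 199 CPM in old and 129 to 174 CPM in young. Without Lyz2 the list summed to 27.0 to 28.4 CPM in old and 75.3 to 90.8 CPM in young, with no overlap. The sum of the neutrophil markers was 5.61 to 8.79 CPM in old and 16.7 to 241 CPM in young, with the highest in young replicate 1, and 4 of 5 fell. That count was 0 once old replicate 1 was left out, and 1 on leaving out either of the other old libraries or young replicate 1. Ngp, 1 of the 4, had 0.422, 0.419 and 0.733 CPM in old, too low to pass the filter on the old libraries alone. Of 10 erythroid markers 3 fell, and their sum was 771 to 937 CPM in old and 843 to 1267 CPM in young, most of it Car2, a carbonic anhydrase gene at 698 to 870.3 CPM in old and 734 to 910.2 CPM in young. Without Car2 the erythroid markers summed to 67.1 to 74.2 CPM in old and 108 to 357 CPM in young, with no overlap and the highest in young replicate 1. In limma-voom none of the neutrophil or erythroid markers passed, while 7 of the 12 macrophage markers did. The part of these cells in the values of Cd48, Fcgr3 and Vcam1 was not tested.

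Antigens of mature lineages, by which marrow is usually depleted before such a sort, had 12 genes in the table, of which 8 passed the filter on low counts. Of these 8, 1 passed edgeR's test, Klrb1c, which encodes the natural killer cell antigen NK1.1. Klrb1c had 57.5, 64.8 and 77.6 CPM in old, against 3.70, 11.1 and 9.48 CPM in young (3.04 ± 0.34, adjusted p = 0.000434 in edgeR's test). Of 3 T and natural killer cell markers it alone passed. Nkg7 and Cd3d did not (log2 −0.46 ± 0.42 and 0.09 ± 0.50, adjusted p = 0.664 and 0.958 in edgeR's test). Of 4 dendritic cell markers 1 rose, Clec9a (1.74 ± 0.29, adjusted p = 0.00565 in edgeR's test), and 3 did not pass. Cd4 had 0.759, 0.671 and 0.321 CPM in old, against 0.569, 10.1 and 5.23 CPM in young. Young replicate 1 lay within the old range, and Cd4 did not pass in edgeR's test with it (adjusted p = 0.0700) and passed without it (adjusted p = 0.00784) and in DESeq2 (adjusted p = 0.00439). Of 3 B cell markers none had an unadjusted edgeR p under 0.05, and none passed in DESeq2 or limma-voom. The same held for 4 stromal markers.

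**Figure D5:**
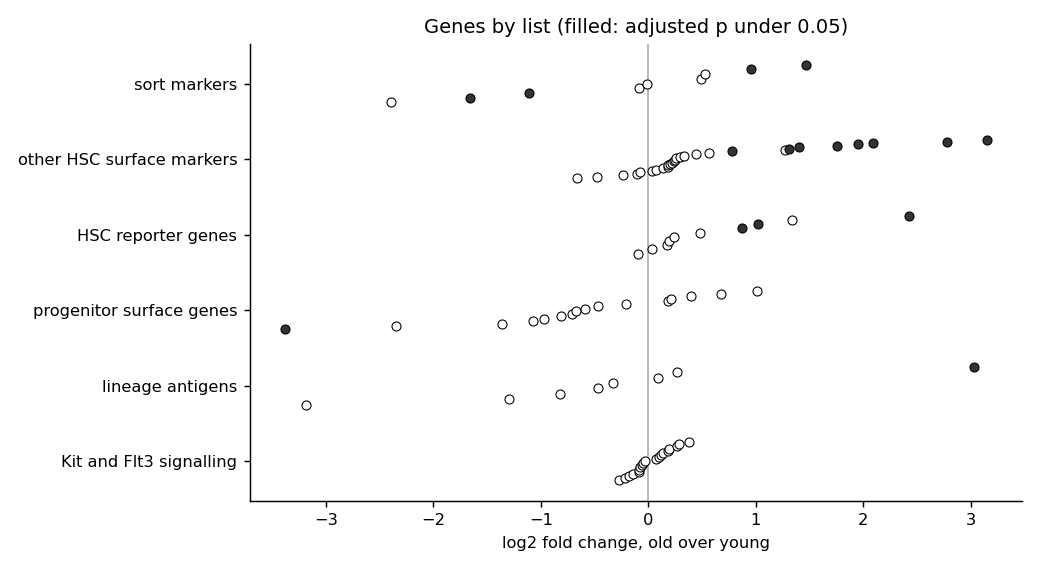
Log2 fold change (old over young, x axis) of single genes by list, each point a tested gene, filled where the adjusted p is under 0.05. The 8 filled points of the other HSC surface markers all lie right of 0, the 19 genes of Kit and Flt3 signalling lie near 0 with none filled, and Fcgr3, at 0 in every old library, is not drawn.

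The genes whose log2 CPM ran most like each marker that passed were found over the 6 libraries among 9025 genes, by the Euclidean distance of centred log2 CPM. Since each of these markers differed by age, genes like it differ by age too, and no test was made. Nearest to Slamf1 were Hpgds (distance 0.31), a prostaglandin D synthase, Sertad1 (0.37) and Ampd3 (0.42). Among the 3 nearest to Procr were Tiparp (0.21) and Cpne8 (0.21).

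Nearest to Cd34 were Kif4 (0.22), a mitotic kinesin, Cdk1 (0.28), the mitotic cyclin-dependent kinase, and Wdfy1 (0.30). Kif4 averaged 38.1 CPM in old and 84.8 CPM in young. Nearest to Flt3 were Camk1d (0.30), a calmodulin-dependent kinase, Hist1h2bn (0.35), a replication-dependent histone, and Nlrc3 (0.43). Of 14 proliferation genes, Cdk1 among them, 9 fell in edgeR's test (64.3%, against 1.54% of all genes) and none rose. The 14 summed to 1550 to 2222 CPM in old, against 3379 to 3986 CPM in young. The count was 5 without old replicate 3, 6 without old replicate 1 or young replicate 3, and 12 in DESeq2. These values moved with Cd34 and Flt3, and their part was not tested.

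The authors' deposited table gives its own comparison of the same libraries, with the sign of young over old. Of the 9 markers 5 had an adjusted p under 0.05 in the authors' deposited table, against 6.17% of its genes. These were Flt3 (log2 1.48, adjusted p = 1.75e-10 in the authors' deposited table), Cd34 (1.14), Slamf1 (−1.34), Procr (−0.93) and Fgd5 (−0.53, adjusted p = 0.0385 in the authors' deposited table). Ly6a, at −0.40, did not pass there (adjusted p = 0.175 in the authors' deposited table). For Cd48 the authors' deposited table gives a log2 value of 0.41 (young over old), where edgeR's fit of the counts gave −2.39 (old over young), and the step that made that value is not stated.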

How the data were processed

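RNA of HSCs sorted by flow cytometry was isolated with the PicoPure kit and made into libraries with the NuGEN Ovation Trio low-input kit, read as single ends of 50 bases, per the labels' protocols. The submitters' processing notes name FastQC, MultiQC, Salmon, DESeq2 and GRCm38, with no versions or order. The deposited table holds the authors' estimated counts per gene, all whole numbers, so none were rounded. A second deposited table holds the authors' own comparison: a base mean (a normalised signal), a log2 fold change with its SE, a test score, and a p-value with its adjusted form. Its sign is young over old, from comparison with the counts. The design calls the 3 libraries of each age biological replicates. Replicates were numbered in sample order, which pairs no libraries. The title of young replicate 2, which matched a column, has another library number than its description.

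Counts were tested in R 4.3.3 with edgeR 4.0.16 (filterByExpr at its minimum count of 10 and minimum total count of 15, TMM factors between 0.955 and 1.06, quasi-likelihood F test, two-sided, Benjamini-Hochberg adjustment over the 14288 genes tested, threshold 0.05), with DESeq2 1.42.0 and limma 3.58.1 as alternatives. The fit was tested on simulated counts. Totals of 12494557 to 30931680 set the precision: 3 counts were 0.0917 to 0.252 CPM in a library, which covers counting error only. Log2 CPM used a prior count of 2. TPM used lengths from the GENCODE annotation of GRCm38, which matched 16301 of 16312 genes by Ensembl identifier, 14500 of them in the same version. Exact permutation of 3 against 3 libraries cannot go below p = 0.1 and was not used.

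The members and gene lists were chosen with earlier results of these data known. The count of each list in edgeR's test stands against 2.45% of all genes higher and 1.54% lower. Named genes are all members, up to 4 per list with the smallest p, and the 3 genes most like each called member. Kdr, Cd38, Itga6 and Itgb3 and the genes near a member were named after their values were seen, as were Hlf, Mecom and any other named gene outside this rule. Some genes that the rule names are not reported here.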

Additional observations from a re-analysis of the deposited data

How the results depend on the processing

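Of 108 values of the sort markers under alternatives, 101 kept their direction and their side of the threshold. The count of changed genes, 570, was 1146 in DESeq2, and 245 to 473 when each library was left out in turn, with 322, 345 and 245 on leaving out old replicates 1, 2 and 3 in that order. The cause was not tested beyond there being fewer samples. With library size alone as the scaling, 310 genes were higher and 298 lower (51.0% higher), against 350 and 220 (61.4% higher) in the fit reported. The number of sort markers called was 4 to 6 in all settings, at 6 in DESeq2 and 5 without old replicate 1 or without young replicate 2. The 5 without old replicate 1 included Cd48, which had no old counts left there. Signs turned for values near 0 when libraries were left out in turn, with ranges of −0.0546 to 0.0358 for Kit, −0.18 to 0.0193 for Cd27, −0.0721 to 0.12 for Cd84, −0.82 to 0.69 for Cd244a, −0.00926 to 0.31 for F2r, −0.21 to 0.15 for Flt3l, −0.23 to 0.0434 for Hlf, −0.18 to 0.0642 for Fyn, −0.219 to 0.0497 for Ptpn6 and −0.165 to 0.0351 for Car2. With library size alone Cd84 came to −0.0373, and with limma-voom Cd244a came to −0.59. The cause of these was not tested. No paired analysis was possible because the labels of the 2 ages share no replicate numbers.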

Other observations

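The 6 libraries limit the precision of every fold, and in 2 of the 3 old libraries Cd48 had no counts, so its level there is known only as under the floor of 3 counts. Old replicate 2 had the lowest total, 12494557. The libraries hold transcripts and not surface protein, so whether the amount of protein differed was not measured. Groups of 3 were too small for a search for outlying libraries.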
